A study of Phyllostachys violascens with 6 samples.

Results

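The 100 unigenes described here had higher read counts in the green sulcus than in the yellow culm of bamboo internodes in each of the 3 same-numbered pairs of libraries. They were chosen by measured values. The count of each unigene was divided by the total of its library and scaled to a total of 1000000 (CPM), unigenes with a mean of at least 1 CPM in the sulcus were kept, and each was scored by the smallest of its 3 pair ratios, log2((sulcus CPM + 0.5)/(culm CPM + 0.5)). After 14 photosynthesis, antenna and plastid unigenes had been left out, 27484 of the 63776 unigenes were ranked and the 100 with the highest scores were taken as members. Scores, fold changes and p values of the members therefore describe the selection and do not test it.

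The libraries came from *Phyllostachys violascens* cv. Viridisulcata, labelled wild type. RNA was taken from the sulcus, the groove along the internode, which the labels call green, and from the culm, which they call yellow. There were 3 libraries of each tissue, from the longest internodes. The text of the study gives the colours of the tissues both ways, so the tissues are named here as the labels name them.

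Green tissue of a stem carries out photosynthesis in chloroplasts, which keep a small genome of their own. That genome encodes core subunits of the photosystems, the cytochrome b6f complex, the NADH dehydrogenase-like complex and the ATP synthase, whereas the nucleus encodes the antenna proteins and most factors that splice, stabilise and translate plastid RNA. Bamboo culm wall also holds epidermis, vascular bundles and lignifying fibres, and each contributes RNA to a bulk sample.

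Library totals lay between 16405396 and 22505338 counts. The 12 unigenes that the study listed under photosynthesis and antenna proteins summed to 5919, 4985 and 2962 CPM in sulcus 1, 2 and 3 and to 1043, 1382 and 2398 CPM in culm 1, 2 and 3. The tissues did not overlap in this sum, and sulcus 3 and culm 3 were the nearest libraries. Most of the sum came from 1 antenna unigene, Cluster-4806.24156. It held 4218, 3432 and 1838 CPM in the sulcus and 669.5, 876.8 and 1524 CPM in the culm. The study chose the 12 on these same libraries, so the lack of overlap is not independent of that choice. In bulk tissue, fewer cells of a type and less RNA per cell cannot be told apart. The study describes its replicates as biological, and for its qRT-PCR samples it says that the numbers stand for different bamboos. For the sequenced libraries this is not stated in so many words, and p values measure the spread between these libraries.

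Most of the members stood only modestly above the culm. Scores ran from 0.44 to 1.81 with a median of 0.52, against a median of -0.21 over all ranked unigenes. A score of 1, which means at least a doubling in the weakest pair apart from the offset, was reached by 10 members, and 59 reached 0.5. The ratio of mean CPM in the sulcus to mean CPM in the culm ran from 1.45 to 11.0 with a median of 1.93, and 41 members had a ratio of 2 or more. The selection ended at Cluster-4806.22504, Cluster-4806.23348 and Cluster-4806.33291, with scores of 0.4409, 0.4404 and 0.4399. Just outside stood Cluster-4806.40114, Cluster-4806.32155 and Cluster-4806.22647, with 0.4398, 0.4393 and 0.4384, so no gap in the scores separated members from the rest. The same rule turned towards the culm gave a score of 0.569 at rank 100, and 151 unigenes reached 0.5 there, against 72 towards the sulcus with the left-out unigenes included.

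**Figure D1:**
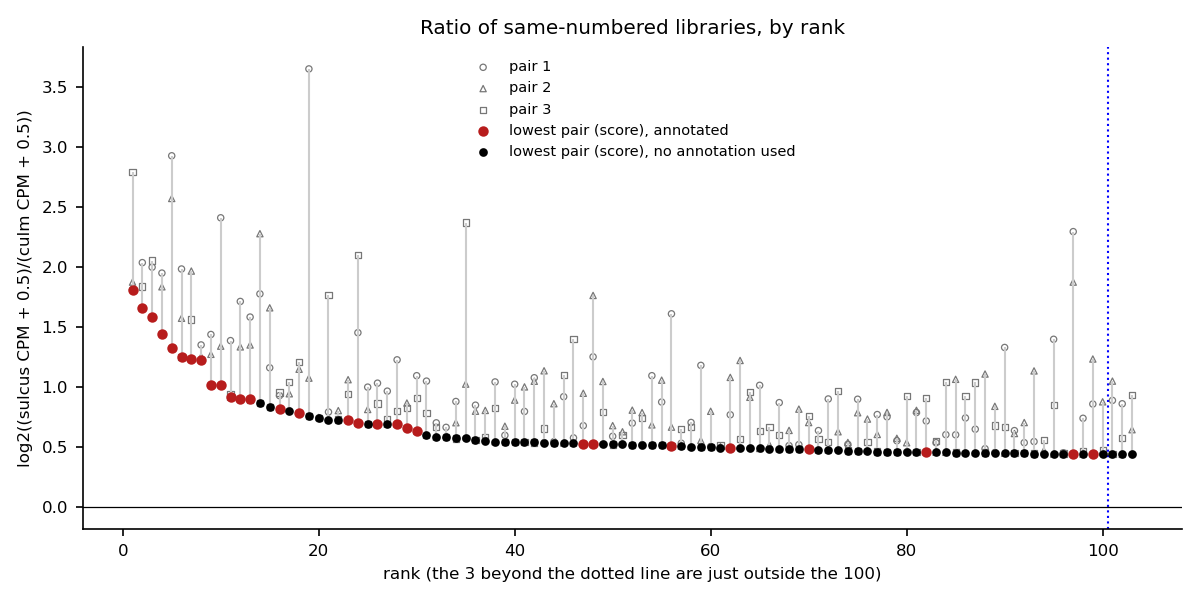
The y axis gives the log2 ratio of sulcus to culm CPM, with 0.5 added to each, for each same-numbered pair of libraries, and the x axis gives the rank of the 100 members and of the 3 unigenes just outside. Filled points mark the weakest pair, which is the score, in red for the 29 members in the annotated table; scores run from 1.81 to 0.44 with no gap at the dotted line, and all of the first 13 are red.

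The annotations used here come from a table of unigenes that the study selected on these same libraries, so they are not independent evidence of a direction. That table held 29 of the members, and the other 71 carry no annotation here. The first 13 members were all in the table, against 16 of the 87 at ranks 14 to 100. Of the 29, 12 had a named protein match, and 2 had no match in the protein, nucleotide, KEGG orthology or Swiss-Prot columns.

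The highest score belonged to Cluster-7188.0, which matched JINGUBANG-like, a WD repeat protein that restrains pollen germination in *Arabidopsis*. Its level was 2.93, 4.27 and 4.48 CPM in sulcus 1, 2 and 3 and 0.477, 0.803 and 0.222 CPM in culm 1, 2 and 3. Every sulcus library lay above every culm library. The counts behind these levels were low, with 48, 83 and 83 in the sulcus and 9, 16 and 5 in the culm. Its log2 fold change was 2.93 (SE 0.51). Unless stated, log2 fold changes and SE come from the edgeR fit that did not take the replicate number as a block. The SE therefore includes the spread between replicate numbers. For this unigene the ratio without the offset in pair 1, which set its score, was 6.14-fold with a 95% counting interval from 2.98 to 14.2. Without the offset the smallest ratio was that of pair 2, 5.32-fold. These exact intervals, computed from the share of the pair's counts that fell in the sulcus, cover counting error only.

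Although the rule left out 14 plastid and photosynthesis unigenes by name, 4 further unigenes that match plastid genomes were among the members. Cluster-4806.26001 matched psbC, which encodes CP43, an inner antenna protein of photosystem II. Its level was 21.5, 17.2 and 21.3 CPM in the sulcus and 4.87, 5.12 and 5.60 CPM in the culm. The libraries of each tissue lay close together and the tissues were far apart. The log2 fold change was 1.94 (SE 0.18), and differences between the tissues took 98.5% of the sum of squares of its log2 CPM. Among the members it had the smallest p of the fit without a block, and by edgeR's quasi-likelihood test its adjusted p (Benjamini-Hochberg, over all unigenes tested) was 0.155.

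The second plastid member, Cluster-4806.36198, aligned to the plastid genome of *Phyllostachys aurea*, and its protein match was a hypothetical protein. Its counts were 28, 37 and 53 in the sulcus and 1, 6 and 7 in the culm. Cluster-4806.36199 matched ndhK, a subunit of the NADH dehydrogenase-like complex that returns electrons to the plastoquinone pool. It stood at 3.47, 4.32 and 6.16 CPM in the sulcus and at 0.530, 0.853 and 1.96 CPM in the culm. In neither unigene did the tissues overlap, and culm 3 was the highest culm library of each. Cluster-4806.41992 matched petA, which encodes cytochrome f of the b6f complex. It was far weaker, with counts of 19, 22 and 30 in the sulcus and 13, 10 and 17 in the culm. Its tissues did not overlap either, but its log2 fold change was 1.003 (SE 0.32), and the counting interval of its weakest pair, 0.788 to 3.70, held 1.

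Those 4 can be set beside the whole plastid genome list. The table held 21 unigenes matching plastid genomes, 20 of them higher in the sulcus in all 3 pairs. These 20 had no overlap between tissues, and the list's median log2 fold change was 2.41, against -0.0059 over all unigenes tested. Most of the left-out unigenes are also in this list. The study selected its table for differences between the tissues in these same libraries, so large fold changes and a lack of overlap were favoured. The contrast with all unigenes tested is therefore not read as a result. The exception was Cluster-4806.10156, whose only protein match was a putative acetyl-CoA carboxylase subunit beta-like protein of rice. It had counts of 2, 7 and 8 in the sulcus and 17, 14 and 29 in the culm. The list's summed level was 267, 262 and 371 CPM in the sulcus and 42.4, 44.0 and 65.7 CPM in the culm.

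A further 4 members matched proteins that the nucleus encodes and the chloroplast imports. Cluster-4806.9489 matched CRS2-associated factor 1, which in maize takes part in splicing of group II introns in the chloroplast. Its level was 13.4, 16.2 and 10.6 CPM in the sulcus and 1.32, 2.31 and 3.96 CPM in the culm. All sulcus libraries were above all culm libraries, and culm 3 was again the highest in the culm. The log2 fold change was 2.41 (SE 0.41).

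Cluster-14270.0 matched the large subunit of glucose-1-phosphate adenylyltransferase, which makes ADP-glucose for starch. It stood at 5.73, 4.22 and 8.43 CPM in the sulcus and at 1.80, 1.46 and 3.91 CPM in the culm. The tissues did not overlap, but culm 3 was just under sulcus 2. The log2 fold change was 1.37 (SE 0.44). Cluster-4806.30628 matched the calcium sensing receptor CAS, a thylakoid protein needed in *Arabidopsis* for stomatal closure in response to external calcium. Its level was 68.4, 55.4 and 69.8 CPM in the sulcus and 22.5, 21.4 and 37.3 CPM in the culm. Its tissues did not overlap, and its log2 fold change was 1.26 (SE 0.24). With at least 425 counts in every library, its weakest pair ratio of 1.87-fold had a counting interval from 1.72 to 2.05.

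Cluster-4806.33158 matched CSP41A, a chloroplast protein that binds stem-loops in plastid RNA. Its level was 57.0, 39.0 and 58.5 CPM in the sulcus and 11.2, 10.3 and 42.9 CPM in the culm. Here culm 3 stood above sulcus 2 and below sulcus 1 and sulcus 3. Pair 3, at 1.36-fold with a counting interval from 1.25 to 1.49, set the score and placed the unigene at rank 97. Its log2 fold change was 1.29 (SE 0.56) with all libraries and 2.23 without culm 3, its highest culm library, whose removal raises the value by construction.

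The direction of these members was not that of every chloroplast protein in the table. Of its 23 nuclear chloroplast-targeted unigenes, 8 were higher in the sulcus in all 3 pairs and 13 were lower in all 3, and the median log2 fold change of the list was -0.998. The lower ones included Cluster-4806.8603, matching violaxanthin de-epoxidase of the xanthophyll cycle, with counts of 59, 111 and 149 in the sulcus and 347, 192 and 392 in the culm. Of 5 carbon and starch enzymes in the table, all were higher in the sulcus in 3 of 3 pairs. Only 3 of them passed the level limit, and the adenylyltransferase subunit was the only member. None of the 15 transcription factors and RNA-binding proteins in the table were members, but only 3 of them passed the limit. None of the 16 unigenes of the study's pathway table were members, and 14 of them passed it. The members were 100 of 27484 ranked unigenes, so nothing is read from these counts.

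**Figure D2:**
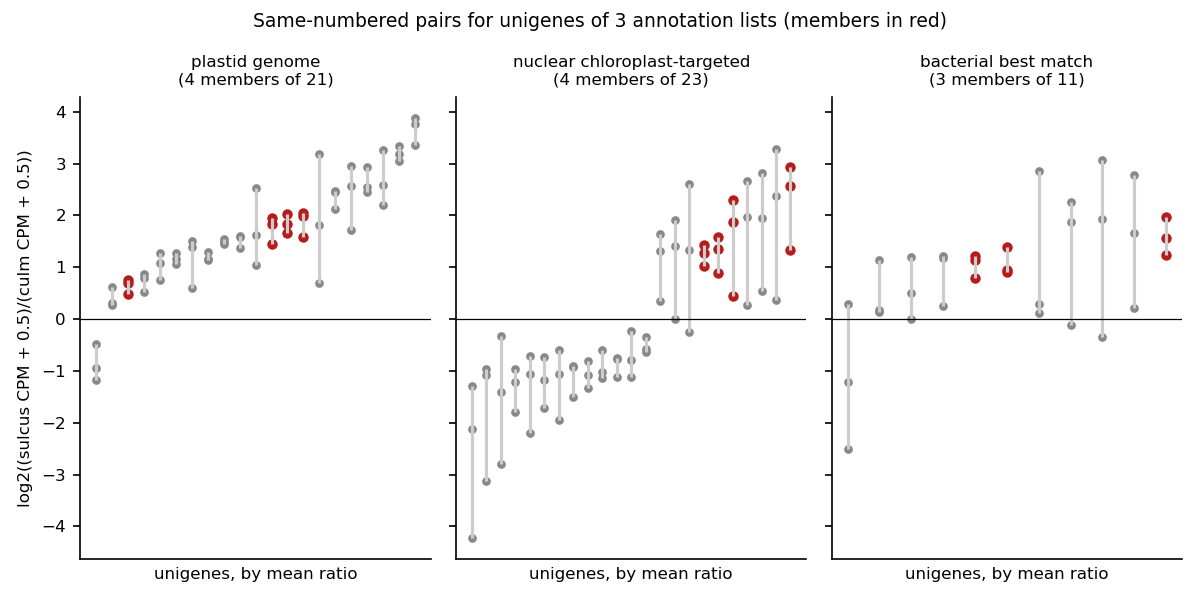
The y axis gives the log2 ratio of sulcus to culm CPM, with 0.5 added to each, in each of 3 same-numbered pairs (points, joined by a line), for the unigenes of 3 annotation lists ordered along the x axis by their mean ratio. Members are in red: of 21 plastid genome matches 20 lie above 0 in all pairs, whereas 13 of 23 nuclear chloroplast-targeted unigenes lie below 0 in all pairs, and 7 of 11 bacterial best matches lie above 0 in all pairs.

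A different group of members had a bacterial genome as best nucleotide match. Cluster-4806.18016 aligned to *Janthinobacterium*. Its level was 28.7, 22.6 and 57.9 CPM in the sulcus and 11.9, 5.41 and 19.3 CPM in the culm. Each sulcus library stood above all culm libraries, but the 3 sulcus libraries spanned 2.56-fold. Cluster-4806.22572 aligned to *Acinetobacter* and was the second most abundant member by mean sulcus CPM. It stood at 142.8, 79.9 and 173.4 CPM in the sulcus and at 54.3, 42.1 and 90.3 CPM in the culm. Cluster-4806.22899, named after its values were seen, aligned to an uncultured bacterium, with 24.3, 19.5 and 50.1 CPM in the sulcus and 13.9, 8.53 and 21.4 CPM in the culm. In both of the latter, culm 3 exceeded sulcus 2, so the tissues overlapped.

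The best protein match of all 3 was a hypothetical protein of sugar beet, and Cluster-4806.22572 and Cluster-4806.22899 shared the same one. Their replicates also ran in the same order, with replicate 2 lowest and replicate 3 highest in each tissue. That order was found in both tissues in 24 of the 100 members and 9.36% of all ranked unigenes, and the rule favours a shared order. The log2 fold changes were 1.60 (SE 0.52), 1.10 (SE 0.37) and 1.11 (SE 0.45) in the order given. Over the table, 11 unigenes had a bacterial match, of which 7 were higher in the sulcus in all 3 pairs and none was lower in all 3. The list included Cluster-4806.2297, which matched a cloning vector, and Cluster-4806.43852, whose nucleotide match was a rice mRNA. Its summed level was 237, 211 and 554 CPM in the sulcus and 121, 70.1 and 209 CPM in the culm, so culm 3 was near sulcus 2. Whether this RNA came from bamboo or from microbes was not tested.

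The most abundant member, Cluster-4806.24002, was outside the annotated table. Its level was 187.8, 169.4 and 328.8 CPM in the sulcus and 107.6, 87.8 and 159.2 CPM in the culm. The tissues did not overlap, with culm 3 just under sulcus 2. It had the same order of replicates as the 3 members with bacterial matches, and its log2 fold change was 0.96 (SE 0.32). With 1750 or more counts in every library, its weakest pair ratio of 1.75-fold had a counting interval from 1.65 to 1.85. Cluster-4806.16182, also without annotation, stood at 40.0, 37.2 and 61.5 CPM in the sulcus and at 18.7, 17.7 and 42.2 CPM in the culm. Culm 3 exceeded 2 of the 3 sulcus libraries.

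Among the other annotated members, Cluster-4806.26630 aligned to a cytochrome P450 mRNA of a grass, from the monooxygenase superfamily that modifies hormones and secondary metabolites. It had no match in the protein, KEGG orthology or Swiss-Prot columns, so the name rests on the nucleotide match only. Its level was 6.71, 7.10 and 4.38 CPM in the sulcus and 1.32, 2.06 and 1.56 CPM in the culm. The tissues did not overlap, and the log2 fold change was 1.87 (SE 0.32). Cluster-4806.33633 matched an MRP-like ABC transporter, from a family that moves conjugates across the vacuolar membrane. It stood at 6.69, 7.72 and 14.9 CPM in the sulcus and at 1.70, 2.76 and 7.78 CPM in the culm, and culm 3 lay above sulcus 1 and sulcus 2. Its log2 fold change was 1.28 (SE 0.60) with all libraries and 2.09 without culm 3, again its highest culm library, so the rise follows from the choice.

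A further 3 members with a protein name rested on few counts. Cluster-4806.24691, assigned to the exopolyphosphatase PRUNE by KEGG orthology, had counts of 17.3, 16 and 31 in the sulcus and 6, 5 and 14 in the culm. It had no Swiss-Prot match, and the same assignment was given to Cluster-7133.0, whose Swiss-Prot match is a retrotransposon polyprotein. The name is therefore uncertain. Cluster-4806.39572, assigned to GPATCH2, a G-patch protein, had 46, 32 and 32 in the sulcus and 11, 17 and 24 in the culm. Cluster-4806.23348 matched galacturonosyltransferase-like 4, of a glycosyltransferase family that acts on cell wall polysaccharides, with 24, 20 and 10 counts in the sulcus and 11, 3 and 6 in the culm. The tissues did not overlap in the former 2 and overlapped in the last. Cluster-4806.29820, chosen after its values were seen, aligned to the mitochondrial genome of *Bambusa oldhamii* and had 19, 14 and 48 counts in the sulcus and 2, 5 and 5 in the culm. Its mean ratio of 7.72-fold was exceeded by only 3 members.

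Of the remaining members with high scores, Cluster-4806.5475 had no match in any annotation column and Cluster-4806.20039 matched an unnamed wheat protein. The former stood at 1.59, 2.01 and 6.16 CPM in the sulcus and at 0.318, 0.552 and 2.36 CPM in the culm. Its culm 3 exceeded sulcus 1 and sulcus 2, although the sulcus was higher by at least 1.22 on the log2 scale in each same-numbered pair. The latter stood at 7.50, 8.39 and 8.43 CPM in the sulcus and at 1.01, 3.01 and 3.91 CPM in the culm, without overlap. Its sulcus libraries lay within 1.12-fold of each other, whereas its culm libraries spanned a wider range.

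**Figure D3:**
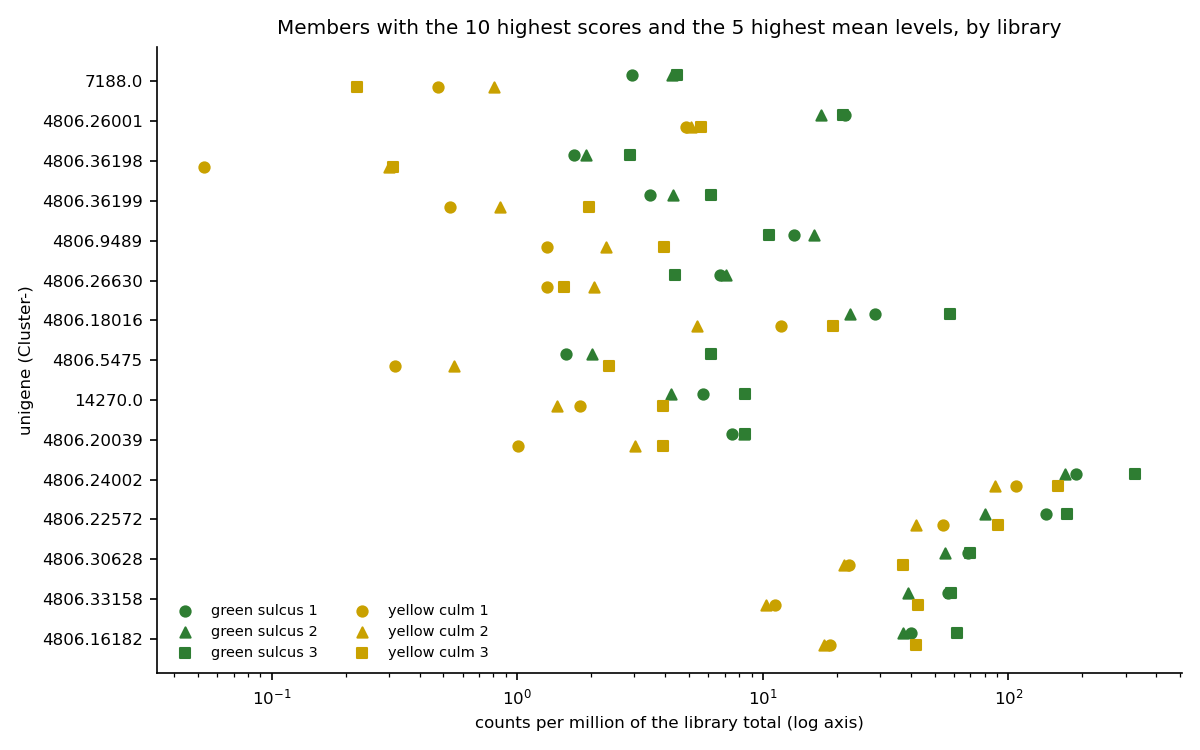
The x axis, a log axis, gives CPM for the members with the 10 highest scores and the 5 highest mean sulcus levels, named on the y axis without the word Cluster; green points are sulcus libraries, yellow points culm libraries, and the marker shape gives the replicate number. Culm 3 (yellow square) is the highest culm library of most of them, and for Cluster-4806.33158 it reaches 42.9 CPM, above sulcus 2 at 39.0 CPM.

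Library by library, the members showed how far the selection on pairs went. In 41 of the 100, the lowest sulcus library stood above the highest culm library, as in 2.04% of all ranked unigenes. The rule favours this pattern, so nothing is read from the difference. In the other 59 the tissues overlapped, and culm 3 was the highest culm library in 38 of these, against 60 of all 100 members. Without culm 3 the number of members without overlap was 72, and leaving out any other library gave between 46 and 57. Leaving out a library can only keep or raise this number, so nothing is read from the rise. Sulcus 3 was the highest sulcus library in 58 members, against 37.9% of all ranked unigenes. The pair that set the score was pair 3 in 45 members, pair 2 in 30 and pair 1 in 25. Over all ranked unigenes the shares of pairs 3, 2 and 1 were 39.4%, 23.4% and 37.2%.

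Within the members, replicate number accounted for almost as much of the spread as tissue. The median share of the sum of squares of log2 CPM was 51.9% between tissues and 45.0% between replicate numbers, against 5.25% and 75.0% over all ranked unigenes. More was found between replicate numbers than between tissues in 42 members. The highest library had the same number in both tissues in 83 members (63.6% of all ranked unigenes), and all 3 libraries had the same order in both tissues in 72 (43.2%). Over 80% of the sum of squares lay between tissues in 14 members and between replicate numbers in 12. The rule scored same-numbered pairs, so it favours a difference between tissues and libraries that move together by number. Nothing is therefore read from the differences between the members and all ranked unigenes.

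At the extreme, the sulcus libraries of 6 members differed more than 10-fold from each other. Those named here are outside the rule for named unigenes and were chosen after their values were seen. Cluster-4806.57 stood at 79.8, 7.51 and 3.46 CPM in the sulcus and at 55.4, 5.02 and 2.36 CPM in the culm. Replicate 1 was high in both tissues, each sulcus library was above its own partner, and replicate number took 98.1% of the sum of squares. Its log2 fold change with all libraries was 0.55, with an SE of 1.49 without a replicate block and 0.12 with it. The rule scored pairs, which favours a small SE with the block. Without sulcus 1, in a fit without the block, its log2 fold change was -1.94. Cluster-4806.28328 stood at 26.3, 1.08 and 1.62 CPM in the sulcus and at 1.64, 0.251 and 0.755 CPM in the culm. Its mean ratio of 11.0-fold was the highest among the members and came mainly from sulcus 1, without which its log2 fold change was 0.61 in place of 3.47. Cluster-11943.0 had counts of 6, 8 and 120 in the sulcus and 0, 1 and 35 in the culm, and was the only member that did not pass the low-count filter of the fit.

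**Figure D4:**
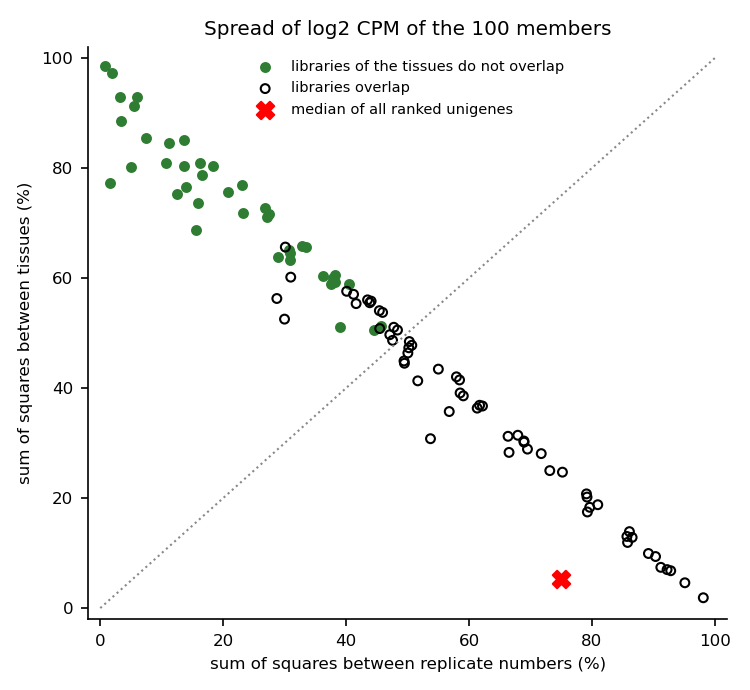
Each point is 1 of the 100 members, with the percent of the sum of squares of its log2 CPM between replicate numbers on the x axis and between tissues on the y axis; filled green points are the 41 members whose tissues do not overlap and open points the other 59. The members spread across the dotted line of equal shares, from mostly tissue at the upper left to mostly replicate number at the lower right. Below that line lie 42, and the red cross marks the medians of all ranked unigenes at 75.0% and 5.25%.

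The fit across all unigenes put these spreads into numbers. A unigene was called where its log2 fold change passed 1 and its Benjamini-Hochberg adjusted p stayed under 0.05. Without a replicate block, edgeR's quasi-likelihood test called 0 of 31936 unigenes higher in the sulcus (0%), and hence 0 of the 99 members tested. At an unadjusted p under 0.05 it gave 168 unigenes higher in the sulcus (0.526%), of which 41 were members. DESeq2 without a block called 16 of 32494 (0.0492%), with 6 among 98 members tested, and limma voom called 0. The median log2 fold change of the members was 0.94, from 0.55 to 3.47.

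The same-numbered libraries deviated together. A fit in edgeR that took the replicate number as a block called 19 unigenes higher in the sulcus (0.0595%). Of these, 11 were members and the other 8 were among the 14 left out. The members were Cluster-7188.0 and the plastid matches Cluster-4806.26001, Cluster-4806.36198 and Cluster-4806.36199. With them were the matches to CRS2-associated factor 1 and CAS, and Cluster-4806.26630, whose cytochrome P450 match is nucleotide only. The rest were the 3 with bacterial matches and the unannotated Cluster-4806.21855, which is named only for this call. The adjusted p of these 11 members with the block, by edgeR's quasi-likelihood test, ran from 0.00342 for Cluster-4806.26001 to 0.0432 for Cluster-4806.36198 and Cluster-4806.21855. A further 2, Cluster-4806.24002 and Cluster-4806.16182, had adjusted p of 0.0248 and 0.0432 with log2 fold changes under 1. DESeq2 with the block called 30 of 31492 (0.0953%), with 16 among the 100 members. Because the rule was the pair ratio itself, these counts repeat the selection and add no support to it.

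Counting error limited the weaker members. The counting interval was that of the pair that set the score, which in 19 members was not the pair with the smallest ratio once the offset was dropped. It lay above 1 in 53 members and held 1 in 47. It lay above 1 in all 16 members with a mean of 20 CPM or more in the sulcus, but in only 3 of the 28 with a mean under 2 CPM. A culm count under 10 was found in 32 members, all 3 culm counts were over 100 in 15, and 2 had a culm library at 0 but none had all 3 at 0.

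Unigenes are groups of assembled contigs, and those that Corset split from one super-cluster can share reads. The largest super-cluster held 45134 unigenes and 74 of the members, against 89.0% of all ranked unigenes. Of the other 26 members, 22 were alone in their super-cluster and 4 had 1 or 2 neighbours. The neighbours of Cluster-3167.0 and Cluster-14681.0 had at most 2 counts in any library. Cluster-12428.0 had counts of 49.2, 49.1 and 65.7 in the sulcus and 26, 25 and 54.8 in the culm, and its neighbour Cluster-12428.1 had 1, 10 and 8 in the sulcus and 15, 14 and 8 in the culm. Summed over both, the super-cluster stood at 3.06, 3.04 and 3.98 CPM in the sulcus and at 2.17, 1.96 and 2.79 CPM in the culm, still without overlap. Cluster-12299.0 had counts of 34, 26 and 221 in the sulcus and 9, 17 and 144 in the culm. Its neighbour Cluster-12299.1 had the same order of tissues in pairs 1 and 3, with 10, 10 and 36 in the sulcus and 4, 12 and 20 in the culm, and Cluster-12299.2 had 2, 6 and 5 in the sulcus and 0, 1 and 14 in the culm.

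Membership itself depended on the 3 pairs. Ranked without pair 1, 2 or 3, the first 100 unigenes held 36, 38 and 30 of the members. Ranked by the lowest sulcus library against the highest culm library in place of pairs, they held 26.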

How the data were processed

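RNA from the sulcus and the culm was sequenced as paired-end reads of 150 bp in 3 libraries per tissue. The authors assembled the reads de novo with Trinity, grouped contigs with Corset and deposited estimated counts per unigene, which are neither normalised nor filtered. How reads were counted is not given in the sources used. DESeq is named in the submitters' processing notes. No genome was used, so no coordinate, strand or sequence of a member is given.

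CPM was computed from library totals, and the members and lists were chosen with earlier results of these data known. Annotations come from the study's table of selected unigenes, whose own fold changes were not used. Lists were formed by text search of its match columns. Named are members with a protein match, the 10 highest scores, the 5 highest mean levels, the 3 lowest scores, the 3 unigenes just outside, and members in super-clusters of 2 to 10. A few others were named after their values were seen.

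Counts were rounded and fitted in R 4.3.3 with edgeR 4.0.16 (TMM, filterByExpr with a minimum count of 10, quasi-likelihood test, sulcus minus culm), with limma 3.58.1 and DESeq2 1.42.0 as alternatives. SE is the log2 fold change divided by the square root of F, from the fit without a replicate block unless stated. Sums of squares are of log2(CPM + 0.5). Pair intervals are exact Clopper-Pearson at 95%. The models and the ranking were tested on simulated data.

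Across unigenes, the deviation of a sulcus library from its tissue mean correlated with that of the culm library of the same number at 0.713, 0.620 and 0.798, and with those of other numbers between -0.632 and -0.0750. The pairing of the libraries rests on the same-numbered values. Centring each tissue on its own mean pushes the other values to be negative when the same-numbered ones are positive, so they are not separate support. The study ties numbers to different bamboos for its qRT-PCR samples, without saying whether the sequenced libraries share them.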

Additional observations from a re-analysis of the deposited data

How the results depend on the processing

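Calls depended on the block and the tool. Against 0 higher and 0 lower in the sulcus in edgeR, DESeq2 gave 16 and 7 with 6 members, edgeR with the replicate block 19 and 22 with 11 members, and DESeq2 with the replicate block 30 and 65 with 16 members. Without the low-count filter 2 were higher, and at an adjusted p under 0.1 also 2, none of them members. RLE size factors, library totals, limma voom, a minimum count of 30, no fold limit and each library left out gave 0 in both directions.

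Membership kept 26 of 100 when the lowest sulcus was set against the highest culm library and 30 to 38 without a pair, against 70 to 87 under other offsets, level limits, TMM library sizes or with the left-out unigenes kept. Members without overlap numbered 41 with all libraries and 45 with TMM sizes. When a library was left out they numbered 46 to 72, a number that leaving out a library can only keep or raise. Of 427 alternative log2 fold changes of named members, 410 moved by less than the spread between replicates, 15 moved further and 2 changed sign. That spread is each unigene's own within-tissue standard deviation. It is wide where replicates differ, as in Cluster-4806.57, so 410 is a lenient count. Among all members, 4 had a log2 fold change under 0 without sulcus 1 and 3 others without sulcus 3, and none did under the other alternatives. With single libraries left out, that of Cluster-4806.57 ran from -1.94 without sulcus 1 to 3.02 without culm 1, and that of Cluster-12299.0 from -0.55 without sulcus 3 to 2.89 without culm 3. These fits had no replicate block, so leaving out 1 library kept its same-numbered partner in the other tissue. Replicate number took 98.1% of the sum of squares of Cluster-4806.57 and 85.8% of that of Cluster-12299.0. Why the replicates of these unigenes differ was not tested. In 47 members the counting interval of the ratio that set the score held 1.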
